A study of Mus musculus with 16 samples.

Results

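Smooth muscle and pericyte genes are the genes by which the mural cells of blood vessels are usually recognised, and 10 of them were followed here in hearts under pressure overload. They were chosen by name as rows of the deposited gene count table, and they are 10 of 55487 genes in that table and of the 18275 genes that had enough counts to be tested, so all 10 passed the low-count filter. The smooth muscle members are Myh11, Tagln, Cnn1, Lmod1, Myl9 and Smtn, and the pericyte members are Rgs5, Pdgfrb, Cspg4 and Notch3. RNA came from the apex of the heart of 16 mice, 4 in each of 4 groups, collected 4 weeks after surgery. Ctrl mice were wild type (labelled WT), and KO mice (labelled CARDINAL-KO) lacked the cardiac long noncoding RNA Cardinal, annotated as Gm12295. In transverse aortic constriction (TAC) the aorta was narrowed by a tie around a needle, so that the left ventricle pumped against a raised pressure, and in sham mice the tie was left out. The study's methods give all mice as male. The age and strain of the mice and how the KO allele was made are not given in the sources used here. Each library came from a separate animal, numbered in its title.

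Mural cells wrap the endothelial tube of a vessel. Vascular smooth muscle cells surround arteries and larger veins and contract by sliding actin along a smooth muscle myosin, while pericytes sit singly on capillaries within the shared basement membrane. In the heart both form the wall of the coronary circulation, and both depend on the platelet-derived growth factor PDGF-B, released by endothelium and bound by the receptor PDGFRβ, and on Notch signals from endothelial Jagged1 to NOTCH3. Many contractile genes of smooth muscle carry CArG boxes, which bind serum response factor (SRF) together with its partners myocardin and the myocardin-related factors.

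The promoters of the members were therefore searched for a CArG box, over the 250 bases before the start of each gene in RefSeq (assembly GRCm38.p6). The promoter table matched 7 of the 10 members, and did not match Myh11, Tagln and Pdgfrb. Of these 7, 1 had a CArG box, against 482 (1.47%) of 32851 promoters in windows of the same length. It was Myl9, on the plus strand of chromosome 2, and the last base of its box lay 152 bases before the start. Its sequence is shown because it was the only one of the 7 windows with the box. It runs from the far end of the window to the base before the gene as annotated in GENCODE M21, with the CArG box in capitals. These bases are chr2:156775214-156775419 (GRCm38, plus strand). They stop short of the RefSeq start, to which the 152 bases are counted.
Myl9: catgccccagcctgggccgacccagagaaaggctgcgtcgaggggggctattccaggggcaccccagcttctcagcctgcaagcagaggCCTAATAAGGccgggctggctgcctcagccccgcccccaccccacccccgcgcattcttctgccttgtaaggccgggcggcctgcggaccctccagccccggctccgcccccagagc
The motif CATTCC, bound by the TEAD factors, was present on either strand in the windows of 2 members, Lmod1 and Smtn, and in 12.6% of all promoters. The Smtn window, placed by its RefSeq start, lies wholly inside the gene as annotated in GENCODE M21, so its match is not upstream of that annotation. The motif GTGGGAA, bound by the Notch effector RBPJ, was in 0 of the 7 windows and in 5.42% of all promoters. No searched motif overlapped another in these windows. A match is a match of letters and not a measured binding site.

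Library totals ranged from 53169437 to 79404714 counts, of which mitochondrially encoded genes took 21.9% to 28.8%. Levels are given as CPM, the usual count scaled to library size, with TMM factors. The deleted gene was present in Ctrl sham at 3.24 to 3.86 CPM and in KO sham at 0.297 to 0.553 CPM. KO TAC 1, 2 and 3 had 0.371, 0.276 and 0.368 CPM, and Ctrl TAC libraries 2.69 to 8.02 CPM, but the library labelled KO TAC 4 had 4.55 CPM (377 counts), so its Cardinal level goes against its label. Ctrl TAC 2 stood apart on the second principal component of log2 CPM (9.11% of the variance), at 62.5 against -13.8 to 3.40 in the other 15 libraries. By the first digits of the animal numbers, Ctrl TAC 2, 3 and 4 and KO TAC 4 formed a 25 series, and Ctrl sham 4 and KO sham 1, 2 and 3 a 33 series, whose meaning is not given. The 25 series held no sham library. Its term rests on Ctrl TAC 1 against the other Ctrl TAC libraries and on KO TAC 4 against the other KO TAC libraries. The 33 series held no TAC library, and its term rests on the sham libraries in the same way. Both terms are therefore partly confounded with the groups. The KO TAC values below include KO TAC 4, and the values of the members without it are given after each set of comparisons. Without KO TAC 4 the KO TAC group holds no 25 series library, so genotype and series are then more closely confounded in TAC hearts.

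Per length of gene the members differed widely in level, and the order of the genes did not follow their cell type. In Ctrl sham hearts Rgs5, a brake on G protein signalling and a pericyte marker, had the highest level, 107 ± 4.66 CPM per kilobase of exon (SD, n = 4). Smtn, which encodes the cytoskeletal protein smoothelin, came next at 35.0 ± 1.67 CPM per kilobase. Myl9 (10.6 ± 1.36), Pdgfrb (10.1 ± 1.16) and Tagln (8.16 ± 1.40 CPM per kilobase) followed, and neighbours among these did not differ beyond their spread. Notch3 had 6.92 ± 0.734 CPM per kilobase, within the spread of Tagln, and Myh11 had 4.11 ± 0.516. Cspg4 (1.799), Lmod1 (0.901) and Cnn1 (0.340 CPM per kilobase) were the lowest, and the mean ± SD ranges of these did not overlap. In bulk tissue a lower level of these genes can come from fewer cells of a type or from less RNA per cell, and these cannot be told apart.

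After TAC the contractile genes did not move together. Smtn fell in both genotypes, Cnn1 rose in both, Tagln rose in KO hearts, and Myh11, Lmod1 and Myl9 passed the test in neither. Of the pericyte members, Pdgfrb and Cspg4 rose in both genotypes, while Rgs5 and Notch3 passed the test in neither. In edgeR, with p-values adjusted over all 18275 genes, 4 of 10 members were called for TAC against sham in Ctrl, 3 higher and 1 lower, where 20.0% of all genes were called, 10.4% higher and 9.60% lower. In KO hearts 5 of 10 members were called, 4 higher and 1 lower, where 34.3% of all genes were called, 17.8% higher and 16.5% lower. The median log2 fold change of the 10 members was 0.08 in Ctrl and 0.29 in KO hearts, against 0.004 and -0.004 for all genes tested. Without KO TAC 4, 5 of 10 members were again called in KO hearts, and the median was 0.27. The members called were Smtn (-0.48, adjusted p = 1.56e-05), Cnn1 (0.96, 0.0269), Tagln (0.59, 0.0404), Pdgfrb (0.32, 0.00463) and Cspg4 (0.58, 0.0127). The share of all genes called in that fit was not computed.

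**Figure D1:**
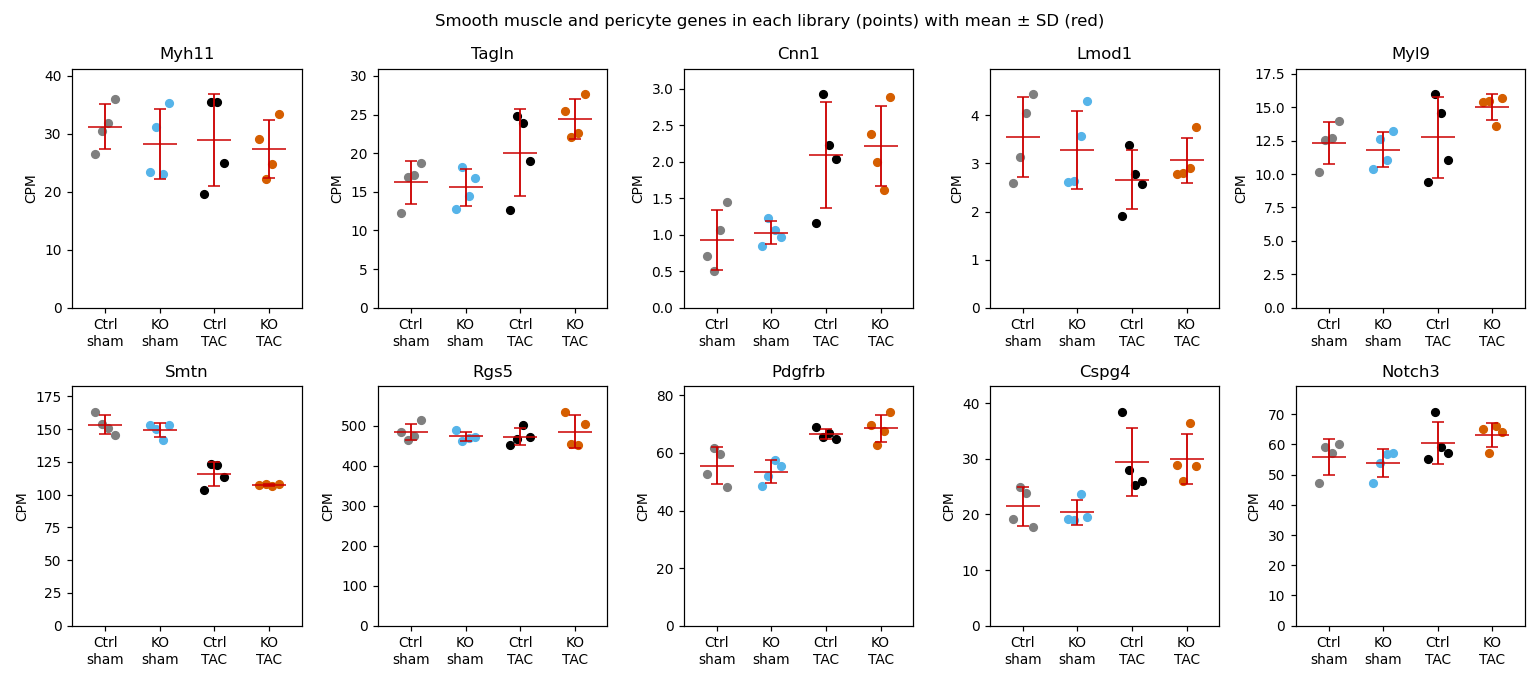
Levels of the 10 members in CPM (vertical axes, each from 0) in the 4 groups, with 1 point per library and the mean ± SD in red (n = 4). The TAC libraries lie below the sham libraries for Smtn and above them for Pdgfrb and Cspg4, while Rgs5 stays between 451 and 534 CPM in all 16 libraries.

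Smtn (chromosome 11, 3517523 to 3540612, minus strand of GRCm38 as annotated in GENCODE M21) was lower after TAC in both genotypes. Its level was 163, 154, 151 and 146 CPM in the 4 Ctrl sham libraries and 104, 123, 123 and 114 CPM in the 4 Ctrl TAC libraries. In KO hearts it was 154, 150.3, 142 and 153 CPM after sham surgery and 107, 108, 106 and 108 CPM after TAC. All 8 sham libraries were above all 8 TAC libraries. The log2 fold change was -0.40 (SE 0.05, adjusted p = 4.02e-05) in Ctrl and -0.48 (SE 0.05, adjusted p = 2.2e-06) in KO hearts, and Smtn was called in both under all 23 alternative settings in which it was refitted. Its annotated exons share 714 bases with Gm11946 on the other strand, whose mean count was 14.9, and whether counting used the strand is not given.

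Cnn1 (chromosome 9, 22099216 to 22109630, plus strand) encodes calponin, an actin-binding protein that restrains smooth muscle myosin, and was the lowest of the members per length in sham hearts. Ctrl sham libraries had 0.710, 0.500, 1.06 and 1.45 CPM and Ctrl TAC libraries 1.16, 2.93, 2.23 and 2.03 CPM, from 32 to 196 counts. Ctrl TAC 1 lay within the range of the Ctrl sham libraries, and the other 3 lay above it. KO sham libraries had 0.854, 1.22, 1.07 and 0.967 CPM, and all 4 KO TAC libraries, at 2.38, 2.00, 1.61 and 2.89 CPM, were above them. The log2 fold change was 1.19 (SE 0.30, adjusted p = 0.00868) in Ctrl and 1.11 (SE 0.29, adjusted p = 0.00681) in KO hearts. With a term for the 25 series, the Ctrl value was 0.55 with an adjusted p of 0.332, and the KO value was called under all 23 settings.

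Tagln (chromosome 9, 45929619 to 45936058, minus strand), which encodes the actin-bundling protein transgelin, responded more unevenly. Ctrl sham libraries had 12.2, 16.9, 17.1 and 18.7 CPM and Ctrl TAC libraries 12.6, 24.8, 23.9 and 19.0 CPM. Ctrl TAC 1 was near the lowest sham library, and the other 3 Ctrl TAC libraries were above all 4 Ctrl sham libraries. KO sham libraries had 12.8, 18.2, 14.5 and 16.8 CPM, and KO TAC libraries had 25.4, 22.2, 22.6 and 27.6 CPM, all above the KO sham libraries. The log2 fold change was 0.31 (SE 0.19, adjusted p = 0.278) in Ctrl and 0.65 (SE 0.19, adjusted p = 0.014) in KO hearts. The Ctrl value was called in 1 of 23 settings, without Ctrl TAC 1 (0.48, adjusted p = 0.0322), and turned to -0.12 (adjusted p = 0.767) with a term for the 25 series. In KO hearts the value was 0.70 with a term for the 33 series, with an adjusted p of 0.0579. Of the 1988 annotated exon bases of Tagln, 1241 are shared with the antisense gene Gm48529 (mean count 152). A further overlap of 108 bases is with Pcsk7 on the other strand (mean count 1140), so the count of Tagln is uncertain to that extent.

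The other 3 contractile genes did not pass the test in either genotype. Myh11 (chromosome 16, 14194535 to 14291372, minus strand), the heavy chain of smooth muscle myosin, had 26.5, 30.5, 31.8 and 36.02 CPM in Ctrl sham and 19.7, 35.5, 35.4 and 24.9 CPM in Ctrl TAC libraries. In KO hearts it had 23.4, 31.1, 23.0 and 35.3 CPM after sham surgery and 29.0, 22.1, 24.7 and 33.4 CPM after TAC. The groups overlapped in both genotypes, with a log2 fold change of -0.11 (95% interval -0.54 to 0.32) in Ctrl and -0.04 (-0.47 to 0.39) in KO hearts.

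Lmod1 (chromosome 1, 135324807 to 135368065, plus strand), a nucleator of actin filaments in smooth muscle, had 2.60, 3.14, 4.04 and 4.44 CPM in Ctrl sham and 1.90, 3.39, 2.78 and 2.58 CPM in Ctrl TAC libraries. The groups overlapped, at -0.41 on the log2 scale (SE 0.20, adjusted p = 0.173). It was called in 1 of 23 settings, with a term for the 25 series (-0.81, adjusted p = 0.0354). KO sham libraries had 2.61, 2.64, 3.56 and 4.29 CPM and KO TAC libraries 2.78, 2.81, 2.91 and 3.75 CPM, a log2 difference of -0.09 (SE 0.20, adjusted p = 0.766).

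Myl9 (chromosome 2, 156775420 to 156781658, plus strand), the regulatory light chain of smooth muscle myosin whose promoter is shown above, had 10.2, 12.5, 12.7 and 13.9 CPM in Ctrl sham and 9.38, 15.96, 14.6 and 11.1 CPM in Ctrl TAC libraries. The Ctrl groups overlapped (log2 fold change 0.05, SE 0.14, adjusted p = 0.847). KO sham libraries had 10.4, 12.6, 11.04 and 13.2 CPM, and KO TAC libraries 15.4, 15.5, 13.6 and 15.7 CPM. All KO TAC libraries were above the KO sham libraries, with a log2 fold change of 0.35 (SE 0.14) that missed the threshold at an adjusted p of 0.0633. It was called in 4 of 23 settings, among them DESeq2 (adjusted p = 0.0437). Over all 23 settings the adjusted p-values ran from 0.0068 to 0.183.

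Pdgfrb and Cspg4, which encode cell-surface proteins of pericytes, were higher after TAC in both genotypes. Pdgfrb (chromosome 18, 61045150 to 61085061, plus strand) encodes the PDGF-B receptor that pericytes need to join a vessel. It had 52.7, 61.8, 59.8 and 48.0 CPM in Ctrl sham and 68.9, 65.6, 67.1 and 64.9 CPM in Ctrl TAC libraries. KO sham libraries had 48.6, 52.1, 57.7 and 55.6 CPM and KO TAC libraries 69.8, 62.8, 67.7 and 74.2 CPM. All 8 TAC libraries were above all 8 sham libraries. The log2 fold change was 0.26 (SE 0.07, adjusted p = 0.0169) in Ctrl and 0.36 (SE 0.07, adjusted p = 0.00092) in KO hearts. The Ctrl call was lost without Ctrl sham 1 (0.24, adjusted p = 0.0611), without Ctrl sham 4 (0.20, adjusted p = 0.0566) and with a term for the 25 series (0.23, adjusted p = 0.139). The KO call was lost with a term for the 33 series (0.23, adjusted p = 0.0685).

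Cspg4 (chromosome 9, 56865033 to 56899870, plus strand) encodes NG2, a membrane proteoglycan of pericytes. It had 19.2, 24.9, 23.9 and 17.8 CPM in Ctrl sham and 38.4, 28.1, 25.2 and 25.9 CPM in Ctrl TAC libraries. The 8 TAC libraries were again above the 8 sham libraries, with KO sham at 19.2, 19.1, 23.6 and 19.6 CPM and KO TAC at 28.9, 25.9, 36.4 and 28.7 CPM. The log2 fold change was 0.45 (SE 0.14, adjusted p = 0.0381) in Ctrl and 0.56 (SE 0.15, adjusted p = 0.00709) in KO hearts. The Ctrl call was made under 16 of 23 alternative settings. It was lost without Ctrl TAC 1 (log2 fold change 0.30, adjusted p = 0.115), Ctrl TAC 2 (0.47, 0.056), Ctrl sham 1 (0.40, 0.111) or Ctrl sham 4 (0.37, 0.102), and without Ctrl TAC 2 and KO TAC 4 together (0.47, 0.0707). It was also lost in the fit to the 8 Ctrl libraries alone (0.45, 0.0845) and with a term for the 33 series (0.42, 0.0636). The KO value was then 0.46 with an adjusted p of 0.117.

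Rgs5 and Notch3 moved less. Rgs5 (chromosome 1, 169655501 to 169695813, plus strand) had 485, 464, 475 and 513 CPM in Ctrl sham, 453, 466, 501 and 472 CPM in Ctrl TAC, 489, 462, 469 and 473 CPM in KO sham and 534, 453, 451 and 503 CPM in KO TAC libraries. The groups overlapped throughout. Its log2 fold change after TAC was -0.03 (95% interval -0.15 to 0.08) in Ctrl and 0.04 (-0.08 to 0.15) in KO hearts, the narrowest intervals beside Smtn among the 10 members. Notch3 (chromosome 17, 32120820 to 32166852, minus strand), the Notch receptor of mural cells, had 47.3, 59.3, 57.1 and 60.2 CPM in Ctrl sham and 55.05, 70.7, 59.1 and 57.2 CPM in Ctrl TAC libraries, which overlapped. KO sham libraries had 47.3, 53.9, 56.9 and 57.2 CPM and KO TAC libraries 65.0, 57.2, 66.0 and 64.1 CPM, and KO TAC 2 lay within the KO sham range. The log2 fold change was 0.11 (SE 0.09, adjusted p = 0.41) in Ctrl and 0.23 (SE 0.09, adjusted p = 0.0504) in KO hearts. The KO value was called in 7 of 23 settings, among them DESeq2 (adjusted p = 0.0448). Over all 23 settings its adjusted p-values ran from 0.0182 to 0.163. The exons of Notch3 share 488 bases with the antisense gene Gm17276 (mean count 76.8).

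**Figure D2:**
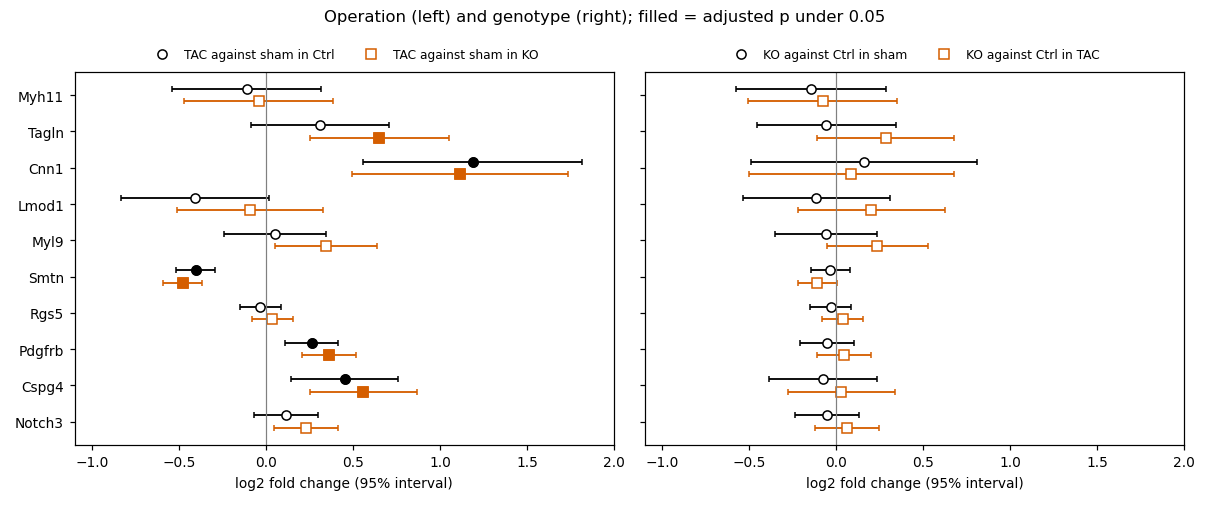
Log2 fold changes of the 10 members (horizontal axis) with 95% intervals from edgeR, for TAC against sham in each genotype (left) and KO against Ctrl in each operation (right), with filled symbols for an adjusted p under 0.05. Cnn1, Pdgfrb and Cspg4 lie above 0 and Smtn below 0 in both genotypes on the left, and 0 members are filled on the right.

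The question whether the loss of Cardinal changes these genes was asked within each operation. After sham surgery edgeR called 0 of 10 members and 0% of all genes (479 genes had an unadjusted p under 0.05), DESeq2 called 0 members, and 0 members had an unadjusted p under 0.05. The deleted Gm12295 was itself not called in this contrast (log2 -2.92, unadjusted p = 0.00358, adjusted p = 0.9998), although its CPM ranges did not overlap, so 0 calls here do not show that nothing changed. The log2 differences of KO against Ctrl ran from -0.15 (Myh11) to 0.16 (Cnn1), with 9 of 10 below 0 and a median of -0.06. After TAC edgeR and DESeq2 again called 0 of 10 members and 0 had an unadjusted p under 0.05, where edgeR called 2.68% of all genes. These differences ran from -0.11 (Smtn, 95% interval -0.22 to 0.00) to 0.28 (Tagln, -0.11 to 0.68), with 8 of 10 above 0 and a median of 0.05. The groups overlapped for all 10 members in both operations. The share of all genes whose groups overlapped was not computed, so nothing particular to the members can be read from this. Among the pericyte members the intervals in TAC hearts lay within -0.28 and 0.33, and the narrowest was that of Rgs5, at -0.08 to 0.16. Without KO TAC 4 edgeR again called 0 members after TAC, with 7 of 10 above 0 and a median of 0.03. Cnn1 then turned from 0.09 to -0.07, Lmod1 had 0.09 in place of 0.20, Myh11 -0.19 in place of -0.08, and Tagln 0.22 (adjusted p = 0.622).

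Whether the response to TAC differed between genotypes was tested by the interaction. 0 of 10 members were called by edgeR and by DESeq2, 0 had an unadjusted p under 0.05, and 0.0109% of all genes were called. The largest value was that of Tagln, 0.34 (95% interval -0.22 to 0.90, adjusted p = 0.681), and the values of Lmod1 and Myl9 were 0.32 and 0.29. Rgs5 had 0.07 (-0.10 to 0.24). Without KO TAC 4, 0 members were called, Tagln had 0.28 (adjusted p = 0.763), and Myh11 turned from 0.07 to -0.04. A larger response of Tagln in KO hearts is therefore not shown by this test, although Tagln was called in KO and not in Ctrl hearts.

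Most contractile genes varied together from library to library. After the group means were subtracted from log2 CPM, Myh11, Tagln and Myl9 correlated across the 16 libraries with Pearson's r of 0.879 to 0.933 in their 3 pairs. For Myh11 and Tagln, r was 0.905 and Spearman's rho 0.894. Without Ctrl TAC 1 and KO sham 4, the 2 libraries farthest from the median of Myh11, r was also 0.905. Here and below, the group means were not recomputed when libraries were left out of a correlation. Such values therefore still carry part of the influence of those libraries. With Lmod1 and Cnn1 added, the 10 pairs ranged from 0.674 to 0.933. Myh11 and Lmod1 had an r of 0.715 (rho 0.688), and 0.580 without those 2 libraries. Myh11 and Cnn1 had an r of 0.674 (rho 0.656), and 0.650 without them. Smtn, also a smooth muscle gene by its list, correlated with these 5 genes at 0.131 to 0.497, and with Myh11 at 0.497 (rho 0.400) falling to 0.242 without the 2 libraries.

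The pericyte members formed no such group. Notch3 correlated with the 5 contractile genes at 0.454 to 0.747, and with Myh11 at 0.643 (rho 0.600, and 0.587 without the 2 libraries). Pdgfrb and Cspg4 correlated with each other at 0.631 (rho 0.676), and at 0.503 without Ctrl sham 2 and Ctrl sham 4, the 2 farthest in Pdgfrb. Cspg4 and Myh11 had an r of -0.440 (rho -0.241), and -0.232 without Ctrl TAC 1 and KO sham 4. Rgs5 and Pdgfrb had an r of -0.143 (rho -0.121, and -0.264 without KO TAC 1 and KO TAC 3). All of these points share library depth, the TMM scaling and the composition of the tissue piece, and the correlations are given as a description. Ctrl TAC 1 was the lowest Ctrl TAC library for Myh11, Tagln, Cnn1, Lmod1, Myl9, Smtn, Rgs5 and Notch3 and the highest for Pdgfrb and Cspg4. It also had the highest Cardinal level of all libraries, 8.02 CPM.

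**Figure D3:**
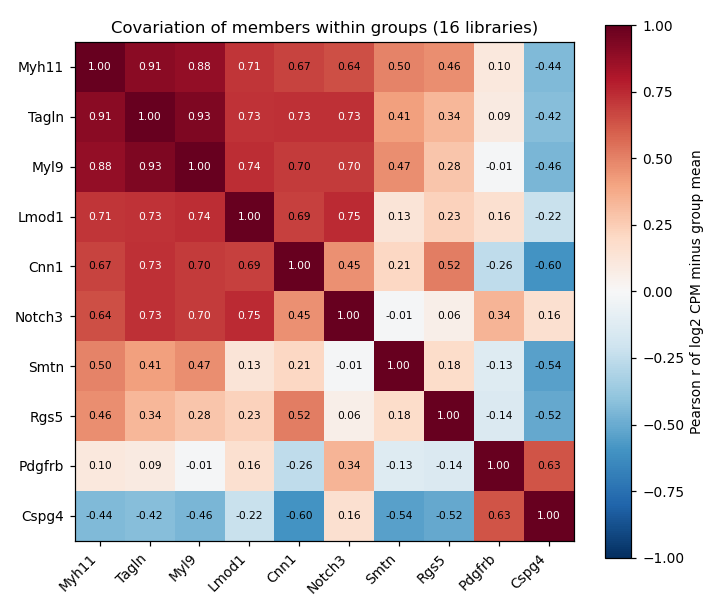
Pearson correlation of log2 CPM minus the group mean between the 10 members over 16 libraries, from -1 (blue) to 1 (red), with each value printed. Myh11, Tagln, Myl9, Lmod1 and Cnn1 form a block of 0.674 to 0.933, and Cspg4 is negative with each of them.

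Myh11 and Tagln were also compared within each library, as a ratio. The ratio of Tagln to Myh11 in CPM was 0.461, 0.552, 0.538 and 0.519 in Ctrl sham and 0.549, 0.585, 0.631 and 0.475 in KO sham libraries. It was 0.641, 0.697, 0.675 and 0.764 in Ctrl TAC and 0.875, 1.00, 0.913 and 0.827 in KO TAC libraries. The 4 Ctrl TAC libraries were above the 8 sham libraries, and the 4 KO TAC libraries were above the 4 Ctrl TAC libraries. The library labelled KO TAC 4, with Cardinal present, had the lowest of the KO TAC ratios, so the order of the groups is the same without it. It was 1 of 2 among the 45 pairs of members, with Tagln to Smtn, whose ratio did not overlap between KO TAC and Ctrl TAC. The share of such pairs over all genes was not computed, so nothing particular to the members can be read from it. These ratios were chosen after the values were seen and were not tested, and the reads that Tagln may share with its antisense gene enter them.

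The same ratio was taken for the other contractile genes. The ratio of Lmod1 to Myh11 was 0.0982 to 0.127 in Ctrl sham, 0.0785 to 0.104 in Ctrl TAC, 0.0849 to 0.155 in KO sham and 0.0956 to 0.127 in KO TAC libraries. The ratio of Cnn1 to Myh11 was 0.0164 to 0.0402 in Ctrl sham and 0.0590 to 0.0824 in Ctrl TAC libraries, and 0.0274 to 0.0464 in KO sham and 0.0651 to 0.0902 in KO TAC libraries. It was thus higher in all 8 TAC libraries than in all 8 sham libraries, Ctrl TAC 1 included, whose Cnn1 level alone was within the sham range. Such separation was common, as 16 of the 45 member pairs did not overlap between TAC and sham in Ctrl and 24 in KO hearts. The share over all genes was not computed. The ratio of Myl9 to Myh11 was 0.383 to 0.410 in Ctrl sham and 0.411 to 0.477 in Ctrl TAC libraries, and the KO groups, at 0.374 to 0.480 after sham surgery and 0.468 to 0.698 after TAC, overlapped.

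**Figure D4:**
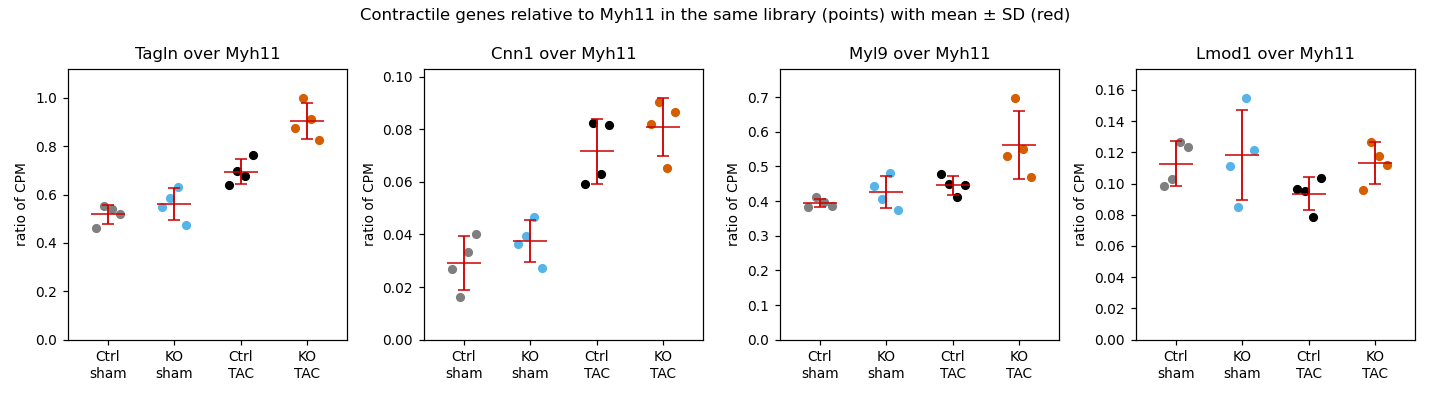
Ratio of the CPM of Tagln, Cnn1, Myl9 and Lmod1 to that of Myh11 in the same library (vertical axes, each from 0), with 1 point per library and the mean ± SD in red (n = 4). For Tagln the KO TAC libraries lie at 0.827 to 1.00, above the Ctrl TAC libraries at 0.641 to 0.764, and for Lmod1 the groups overlap.

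The genes most like Myh11 and Rgs5 were sought among 10201 genes by the correlation of log2 CPM after subtraction of the group means over the 16 libraries. For Myh11 these were Tnfrsf21 (r = 0.879), Enpp2 (0.869), Mylk (0.858), Prkacb (0.844) and Asb10 (0.819). Mylk encodes the kinase that phosphorylates the light chain of smooth muscle myosin. For Rgs5 they were Zfp276 (r = 0.822), Tusc2 (0.797), Qrich1 (0.795), Aph1b (0.784) and Srsf10 (0.782), and none of these is on the pericyte list. Without subtraction of the group means, r was 0.383 to 0.846 for the genes named with Myh11 and 0.459 to 0.698 for those with Rgs5. These are the highest of 10201 correlations over 16 libraries, so high values can arise by chance, which was not tested.

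Among 13 other smooth muscle genes, 5 rose and 0 fell after TAC in Ctrl, and 6 rose and 0 fell in KO hearts. Counts for this and the lists below, cell type markers included, stand beside 20.0% of all genes called after TAC in Ctrl and 34.3% in KO hearts. For KO against Ctrl in TAC the share was 2.68%. These shares come from the fit to all libraries without a series term, and those of the other fits were not computed. Their median log2 fold change was 0.23 in Ctrl and 0.35 in KO hearts, against 0.004 and -0.004 for all genes tested. Tpm2, a tropomyosin, rose by 0.70 in Ctrl (adjusted p = 0.000854) and 0.75 in KO hearts (0.00022). Actn1, the alpha-actinin of non-muscle and smooth muscle cells, rose by 0.48 (adjusted p = 0.000121) and 0.75 (3.88e-07), and Myl6, the essential light chain, by 0.32 (0.00101) and 0.57 (1.42e-06). In Ctrl hearts 2 of the 13 rose when the 25 series was a term. Actg2, the enteric smooth muscle actin, was called in KO hearts at 1.39 (adjusted p = 0.0243) on only 14 to 79 counts, and at 1.16 with an adjusted p of 0.0815 without KO TAC 4.

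Acta2, the vascular smooth muscle actin, which myofibroblasts also make, was not called. It had 40.8, 52.6, 76.4 and 67.4 CPM in Ctrl sham and 43.1, 49.6, 47.5 and 39.5 CPM in Ctrl TAC libraries, a log2 fold change of -0.40 (adjusted p = 0.0788). The groups overlapped. In KO hearts it had 57.6, 52.3, 56.7 and 45.5 CPM after sham surgery and 57.9, 50.0, 57.4 and 59.5 CPM after TAC (0.08, adjusted p = 0.712). Of the 13 genes, Cald1 (0.26, adjusted p = 0.021) and Myl6 (0.29, adjusted p = 0.02) were higher in KO TAC than in Ctrl TAC hearts. Cald1, which encodes caldesmon, had 64.2, 60.3, 67.9 and 68.0 CPM in KO TAC and 55.5, 50.9, 56.3 and 55.3 CPM in Ctrl TAC libraries. Both calls were kept without KO TAC 4 (adjusted p = 0.0474 and 0.0342) and lost without KO TAC 4 and Ctrl TAC 2 together (0.137 and 0.088).

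The 14 other pericyte genes moved in both directions, with a median log2 fold change of -0.01 in Ctrl and 0.01 in KO hearts. In Ctrl hearts 1 rose and 1 fell, and in KO hearts 3 rose and 1 fell, where 20.0% and 34.3% of all genes were called. Abcc9, the sulfonylurea receptor subunit of the potassium channel of pericytes and heart muscle, fell from 397 to 434 CPM in Ctrl sham to 243 to 293 CPM in Ctrl TAC libraries (log2 fold change -0.64, adjusted p = 4.94e-06). In KO hearts it fell from 332 to 401 CPM to 198 to 237 CPM (-0.78, adjusted p = 1.97e-07). Mcam, the adhesion molecule CD146, rose by 0.28 in Ctrl (adjusted p = 0.0257) and 0.54 in KO hearts (8.61e-05). Gja4, a gap junction protein of arterial endothelium and mural cells, rose by 0.53 in KO hearts (adjusted p = 0.000365).

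Genes of PDGF ligands and of a related receptor were read beside the members, and not all of them act through PDGFRβ. Pdgfb, the ligand of PDGFRβ, had a log2 fold change of 0.01 in Ctrl (adjusted p = 0.938) and 0.11 in KO hearts (0.287), at 35.3 to 46.0 CPM in Ctrl sham and 36.8 to 40.8 CPM in Ctrl TAC libraries. Of the 5 PDGF ligand and receptor genes listed, Pdgfb included, 1 rose and 1 fell in Ctrl hearts, and 2 rose and 1 fell in KO hearts, with a median log2 fold change of 0.01 and 0.11. Pdgfc rose by 0.57 (adjusted p = 0.0172) and 0.92 (0.000201), and Pdgfa, a ligand of the fibroblast receptor PDGFRα, changed by -0.48 (0.00151) and -0.35 (0.00703). Pdgfra, that receptor, rose by 0.31 in KO hearts (adjusted p = 0.0234). With a term for the 33 series, the KO calls of Pdgfa and Pdgfra were lost (adjusted p = 0.161 and 0.179), and 0 pericyte members were called in KO hearts.

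Of 13 other Notch pathway genes, 2 rose and 0 fell in Ctrl and 1 rose and 0 fell in KO hearts, where 20.0% and 34.3% of all genes were called. Their median log2 fold change was -0.06 and 0.07. Heyl, a target gene of Notch signalling in mural cells, rose by 0.54 in Ctrl (adjusted p = 0.0013) and 0.80 in KO hearts (1.39e-05). It had 13.2 to 17.6 CPM in Ctrl sham and 20.6 to 27.7 CPM in Ctrl TAC libraries, which did not overlap. Notch4, an endothelial Notch receptor, was called in Ctrl hearts (0.34, adjusted p = 0.0299) and not in KO hearts (-0.06, 0.71). Without Ctrl TAC 2 and KO TAC 4 its Ctrl value was 0.23 with an adjusted p of 0.103. In KO hearts 2 genes rose when KO TAC 4 was left out. Jag1, the endothelial ligand of NOTCH3, had 0.09 (adjusted p = 0.473) and 0.07 (0.539).

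Among 11 transcriptional regulators of mural cells, 3 rose and 1 fell in Ctrl and 6 rose and 1 fell in KO hearts, with a median log2 fold change of 0.18 and 0.24. Srf rose in Ctrl hearts by 0.32 (adjusted p = 0.0297) and had 0.23 (0.0832) in KO hearts, and without Ctrl TAC 2 and KO TAC 4 the adjusted p in Ctrl was 0.0842. Myocd, the SRF partner that lies next to Cardinal in the genome, had 0.18 (adjusted p = 0.254) and 0.13 (0.371). Mrtfa, the actin-regulated partner of SRF, rose by 0.38 (adjusted p = 0.00232) and 0.24 (0.0231). Csrp2, a LIM protein that works with SRF in smooth muscle, rose by 0.86 (4.06e-06) and 1.26 (2.38e-08). Foxs1, a forkhead factor of pericytes, rose by 1.34 in KO hearts (adjusted p = 0.000551), and Klf4, which represses contractile genes, by 0.58 (0.0124).

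Csrp2 and Ebf1 were the regulators called in KO TAC against Ctrl TAC hearts. Csrp2 had 12.8, 16.2, 16 and 13.5 CPM in KO TAC and 9.89, 11.3, 10.7 and 11.6 CPM in Ctrl TAC libraries, which did not overlap (log2 difference 0.43, adjusted p = 0.0202). Without KO TAC 4 it was 0.46 with an adjusted p of 0.0233, and without Ctrl TAC 2 as well 0.48 with an adjusted p of 0.0538. Ebf1, a factor of adipose and mural lineages, had a difference of 0.28 (adjusted p = 0.0479), and of 0.23 with an adjusted p of 0.12 without KO TAC 4. The calls of Cald1, Myl6, Csrp2 and Ebf1 in KO TAC against Ctrl TAC were all lost with a term for the 25 series, at adjusted p-values of 0.104 to 0.117. Calls kept without KO TAC 4 do not separate genotype from that series.

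Relatives of the members, from the same gene families, were read as well. Of 15 family members, 14 had enough counts to be tested, and Smtnl1 did not, with at most 9 counts in a library. In Ctrl hearts 6 rose and 1 fell, and in KO hearts 8 rose and 2 fell, with a median log2 fold change of 0.18 and 0.27. Rgs2, a relative of Rgs5, fell by 0.75 on the log2 scale in Ctrl (adjusted p = 0.00206) and by 1.15 in KO hearts (2.39e-05), where Rgs5 had -0.03 and 0.04. Myl12a, a regulatory light chain found in most cell types, rose by 0.62 (9.49e-06) and 0.57 (6.93e-06), where Myl9 had 0.05 and 0.35. Myh10, a non-muscle myosin heavy chain, rose by 0.55 (0.0239) and 0.68 (0.00378), where Myh11 had -0.11 and -0.04. Tagln3, the neuronal transgelin, fell by 1.27 in KO hearts (adjusted p = 0.00709), on 16 to 60 counts, and had -0.81 with an adjusted p of 0.165 with a term for the 33 series. In the interaction 0 genes of these 6 lists were called.

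**Figure D5:**
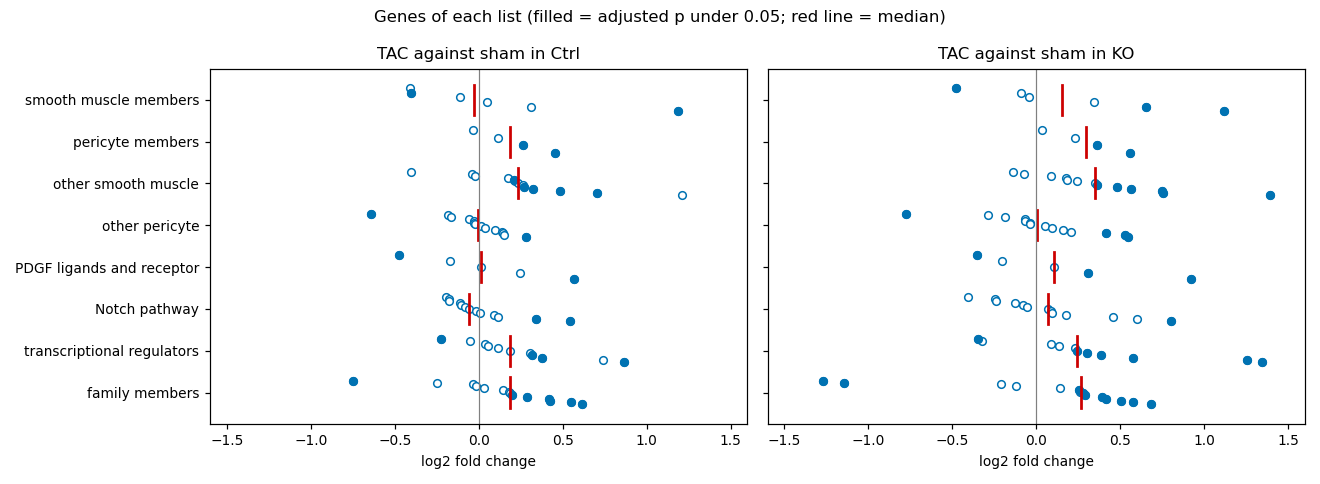
Log2 fold changes (horizontal axis) for TAC against sham in Ctrl (left) and KO hearts (right), with 1 point per gene of each list, filled for an adjusted p under 0.05, and the list's median in red. The pericyte members have medians of 0.19 and 0.29, and the other pericyte genes of -0.01 and 0.01.

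Markers of other cell types moved with TAC and are given beside these results. The summed level of 6 activated fibroblast markers was 34.6 to 55.6 CPM in Ctrl sham, 40.1 to 45.4 in KO sham, 168 to 333 in Ctrl TAC and 500.4 to 643 CPM in KO TAC libraries, with 5 of 6 called higher after TAC in Ctrl, 6 of 6 in KO hearts, and 4 of 6 higher in KO than in Ctrl after TAC. That of 6 fibroblast markers was 460 to 492, 455 to 489, 532 to 766 and 754 to 914 CPM in the same order, and that of 6 macrophage markers 88.0 to 118, 83.2 to 103, 126 to 141 and 129 to 168 CPM. Of the fibroblast markers 2 rose in Ctrl and 5 in KO hearts, and of the macrophage markers 3 and 6. The summed level of 6 cardiomyocyte markers was lower after TAC, from 39839 to 47029 and 39822 to 45344 CPM in sham to 33393 to 37026 in Ctrl TAC and 28111 to 29558 CPM in KO TAC libraries, with 4 called lower and 1 higher in Ctrl and 5 lower in KO hearts. For 6 endothelial markers it was 531 to 602, 535 to 658, 525 to 690 and 539 to 603 CPM, and 0 of 6 were called in any contrast. Of the 6 activated fibroblast markers 0 were called in KO against Ctrl after TAC with a term for the 25 series, and 2 without Ctrl TAC 2 and KO TAC 4. Of 6 mesothelial markers 3 had enough counts, and 0 were called in KO hearts with all libraries and 3 rose without KO TAC 4. Mesothelial markers summed to 3.27 to 13.1 CPM and glial markers to 3.05 to 11.4 CPM over all libraries, with 1 of 5 glial markers called lower in Ctrl and 4 in KO hearts. The median log2 fold change of the cardiomyocyte markers was -0.26 in Ctrl and -0.53 in KO hearts, where Smtn had -0.40 and -0.48. Fibroblasts also express Pdgfrb, Tagln and Cnn1 at some level. The part of any of these cell types in the results, that of Smtn included, was not tested.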

How the data were processed

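The authors sequenced poly(A)-selected RNA as paired reads of 150 bases and deposited the raw read counts of each mouse, by Ensembl gene, in a single table. The submitters' processing notes name cutadapt 2.3, FastQC, HISAT2 2.1.0, edgeR 3.26.1 and the build GRCm38. The counting program, the annotation and the use of strand are not given in the sources used here. Columns were matched to mice by the animal number in the titles, and replicates were numbered in sample order, which pairs nothing. GENCODE M21 held 99.5% of the identifiers.

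Genes were filtered with filterByExpr, scaled by TMM and fitted in edgeR 4.0.16 (R 4.3.3) with 1 mean for each of the 4 groups and no batch term (glmQLFit, robust, and glmQLFTest). A gene was called at an adjusted p under 0.05 (Benjamini-Hochberg, over all 18275 genes). The standard error is the absolute log2 fold change over the square root of F. Levels per length divide CPM by the merged exons of GENCODE M21. The fit was also run on counts simulated without a series effect, as a check of the code only. Correlations use log2 CPM with a prior count of 2.

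The members, the lists of other genes and the animal-number series were chosen with earlier results of these data known. Beside the members, the text names Acta2, Pdgfb, Jag1, Srf, Myocd and Cardinal, every gene of the 6 related lists called for KO against Ctrl in TAC or the interaction, and for each list the 3 called genes with the largest change after TAC in each genotype. Smtnl1 and the overlapping genes are named because a value turns on them. Alternatives were RLE size factors, DESeq2 1.42.0, library sizes without mitochondrial genes, 2 other filters, a threshold of 0.01, a term for each animal-number series, fits to 8 libraries, and leaving out each library, or Ctrl TAC 2 and KO TAC 4 together. For the lists beside the members, 4 of these were added after the data were seen. Intervals are 95% intervals of the fit.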

Additional observations from a re-analysis of the deposited data

Results flagged for a closer look

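Each member's 4 values in each group were screened for 1 library far from the other 3, by Dixon's ratio at its 95% critical value. Of the 40 groups of values, 3 passed it, where chance gives about 1 in 20. Lmod1 had 3.75 CPM in the library labelled KO TAC 4, against 2.78 to 2.91 CPM in the other KO TAC libraries. Myl9 had 13.6 CPM in KO TAC 3, below the 15.4 to 15.7 CPM of the others. Cspg4 had 23.6 CPM in KO sham 3, above the 19.1 to 19.6 CPM of the others. The first of these is in the library whose Cardinal level goes against its label.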

How the results depend on the processing

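Smtn was called in both genotypes under all 23 alternatives, and Rgs5 and Myh11 in neither genotype under any. Of 129 recomputed counts of members called, 125 were unchanged or stayed within 1.5 times. These include every count for the genotype contrasts and the interaction, which were 0 in the main fit and stayed 0. The 4 counts that moved were all for TAC against sham. For TAC against sham in Ctrl the count of 4 was 2 at an adjusted p under 0.01 and 2 to 4 with 1 library left out, at 2 without Ctrl sham 1 or Ctrl sham 4. In KO hearts the count of 5 was 2 with a term for the 33 series. The share of all genes called under each alternative was not computed. A general loss of calls therefore cannot be told apart from a change in the members. Of 1140 member log2 fold changes, 1065 kept direction and side of the threshold, 14 lost and 13 gained a call, and 48 changed sign, none of them called. The causes were not tested.

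With a term for the 25 series, TAC against sham in Ctrl was -0.12 for Tagln and -0.20 for Myl9, KO against Ctrl in TAC 0.21 for Myh11 and -0.11 for Cspg4, and the interaction 0.34 for Cnn1 and -0.030 for Cspg4. With a term for the 33 series, KO against Ctrl in sham was -0.073 for Cnn1, 0.0014 for Smtn and 0.036 for Pdgfrb, and the interaction 0.16 for Cnn1. Without Ctrl TAC 2 and KO TAC 4, Myl9 had -0.075 for TAC against sham in Ctrl and Pdgfrb -0.0048 for KO against Ctrl in TAC.

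With 1 library left out, TAC against sham in Ctrl ranged from -0.23 to 0.034 for Myh11 and -0.075 to 0.17 for Myl9, and in KO from -0.16 to 0.081 for Myh11, -0.21 to 0.061 for Lmod1 and -0.012 to 0.070 for Rgs5. KO against Ctrl in sham ranged from -0.17 to 0.026 for Tagln, -0.049 to 0.44 for Cnn1, -0.27 to 0.0082 for Lmod1, -0.14 to 0.0048 for Myl9, -0.16 to 0.0031 for Cspg4 and -0.13 to 0.0012 for Notch3. In TAC it ranged from -0.22 to 0.036 for Myh11, -0.11 to 0.29 for Cnn1, -0.011 to 0.072 for Rgs5 and -0.076 to 0.18 for Cspg4. The interaction ranged from -0.076 to 0.19 for Myh11 and -0.36 to 0.14 for Cnn1. Counts of 32 to 240 limit the precision of Cnn1. No paired analysis was possible because the replicate numbers follow sample order and pair no animals.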
